A study of Homo sapiens with 6 samples.

Results

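The genes described here are 58 nucleolar factors that build ribosomes, listed by their symbols, with earlier results of these data known: the core proteins of small nucleolar ribonucleoprotein particles (snoRNPs), the small-subunit (SSU) processome, and factors that mature the 40S and 60S subunits. All 58 were among the 20802 genes of the deposited tables. RNA was measured in K562 cells, a human chronic myeloid leukemia line taken in blast crisis, infected with a pLKO.1-puro lentivirus and selected with puromycin as stable clones. In the shSc group (3 libraries) the virus carried a scrambled shRNA, and in the NPM-KD group (3 libraries) it carried shNPM300, an shRNA against NPM1. A single shRNA against NPM1 was profiled, and the libraries are described as triplicates without being called separate cultures, so the spread that the p-values below rest on could be technical.

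NPM1 encodes nucleophosmin (NPM), an abundant nucleolar protein that binds ribosomal proteins and pre-ribosomes and acts in ribosome assembly and export. Ribosome production starts with the transcription of a long precursor rRNA. Box C/D snoRNPs methylate that RNA and box H/ACA snoRNPs convert uridines to pseudouridines, the SSU processome folds and cuts the part that becomes 18S rRNA, and further factors, among them the PeBoW complex, assemble and export the 60S subunit. The comparison therefore asks whether mRNAs of this machinery change in cells with less NPM1 mRNA.

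Expression was read by AmpliSeq, in which a short amplicon of each gene's cDNA is amplified and counted, and is given as RPM, reads scaled to a common library total. Levels of different genes rest on different amplicons and were not ranked against each other. Depth was 8842344 to 18981902 reads per library, so that 3 reads, used as the floor of detection, corresponded to 0.158 to 0.339 RPM. Replicate 3 of shSc stood apart from the other libraries. It had 16619 genes above 0, against 13893 to 14600 in the others, and its correlation with them over tested genes was 0.825 to 0.864, against 0.925 to 0.973 among the other 5. It was also left out of the comparison by the study. The main comparison is therefore shSc replicates 1 and 2 against the 3 NPM-KD libraries, and values of shSc replicate 3 are given beside it where single libraries are read. The erythroid and K562 markers GATA1, KLF1, TAL1, NFE2, HBG1, HBG2 and HBZ were at 1 RPM or more in every library. Markers of other cell types were read too. Of 5 T cell, 5 fibroblast and 5 epithelial genes, 1, 2 and 2 reached 1 RPM in every library and 2, 3 and 1 stayed under it (CD3E and CD2; COL3A1, DCN and LUM; CDH1). Their summed levels over the 3 NPM-KD libraries were 18.3 to 88.8, 13.9 to 54.8 and 218 to 441 RPM, against 48.4 to 51.5, 16.1 to 37.5 and 289 to 381 RPM in shSc replicates 1 and 2 and 101, 20.9 and 342 RPM in shSc replicate 3. The T cell gene CD3D, at 17.65 to 87.56 RPM, and the epithelial gene KRT19, at 114.5 to 343.9 RPM, were highest in NPM-KD replicate 3. The B cell genes MS4A1, CD79A and PAX5 were under 1 RPM throughout. In shSc replicate 3, CD79B (19.79 RPM), LCK (47.05 RPM) and KRT5 (24.99 RPM) were measured, while in the other 5 libraries CD79B did not exceed 0.211 RPM and LCK and KRT5 were at 0. The part of these genes in the results below was not tested.

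NPM1 (chromosome 5, 170814120 to 170838814 of GRCh37) measured 3856 and 2968 RPM in replicates 1 and 2 of shSc against 1302, 1168 and 654.7 RPM in replicates 1, 2 and 3 of NPM-KD. Replicate 3 of shSc had 3146 RPM. Every NPM-KD library was below every shSc library, and NPM-KD replicate 3 was the lowest. On the log2 scale it differed by -1.76 (NPM-KD minus shSc, with a standard error, SE, of 0.35), and limma gave an adjusted p of 0.158 over all tested genes, above 0.05. DESeq2 on the recovered reads gave -1.71 with an adjusted p of 0.00145.

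None of the ribosome biogenesis factors changed past the threshold in NPM-KD. Of the 58 genes, 57 reached 1 RPM in 2 or more of the 5 libraries and were tested, and 0 of these 57 passed an adjusted p of 0.05 from limma in either direction, beside 15 of all 11554 tested genes (0.13%; 0.0692% higher and 0.0606% lower). No member had an unadjusted p under 0.05 (7.14% of all tested genes did, 3.81% higher and 3.33% lower), and the lowest adjusted p was 0.712, for UTP15. With edgeR the count of called members was 0 in both directions too. At an unadjusted p under 0.05 it was 0, beside 3.55% of all tested genes higher and 3.39% lower. With DESeq2 0 members were called. At an unadjusted p under 0.05, 1 was then higher (1.75%, beside 3.83%) and 0 lower (beside 3.74%). The log2 fold changes of the 57 members ran from -0.61 to 0.82. Their median was 0.11, beside 0.01 over all tested genes, and 36 of 57 (63.2%) were above 0, beside 50.8%. A pair of shSc libraries is a small control group, and the intervals say how large a change could have been missed. For 42 of the 57 members (73.7%) the 95% confidence interval of the log2 fold change lay within -1 and 1. The same held for 40.1% of all tested genes and for 59.7% of the 5040 tested genes with a mean level between 28.4 and 287 RPM, where most members lie.

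**Figure D1:**
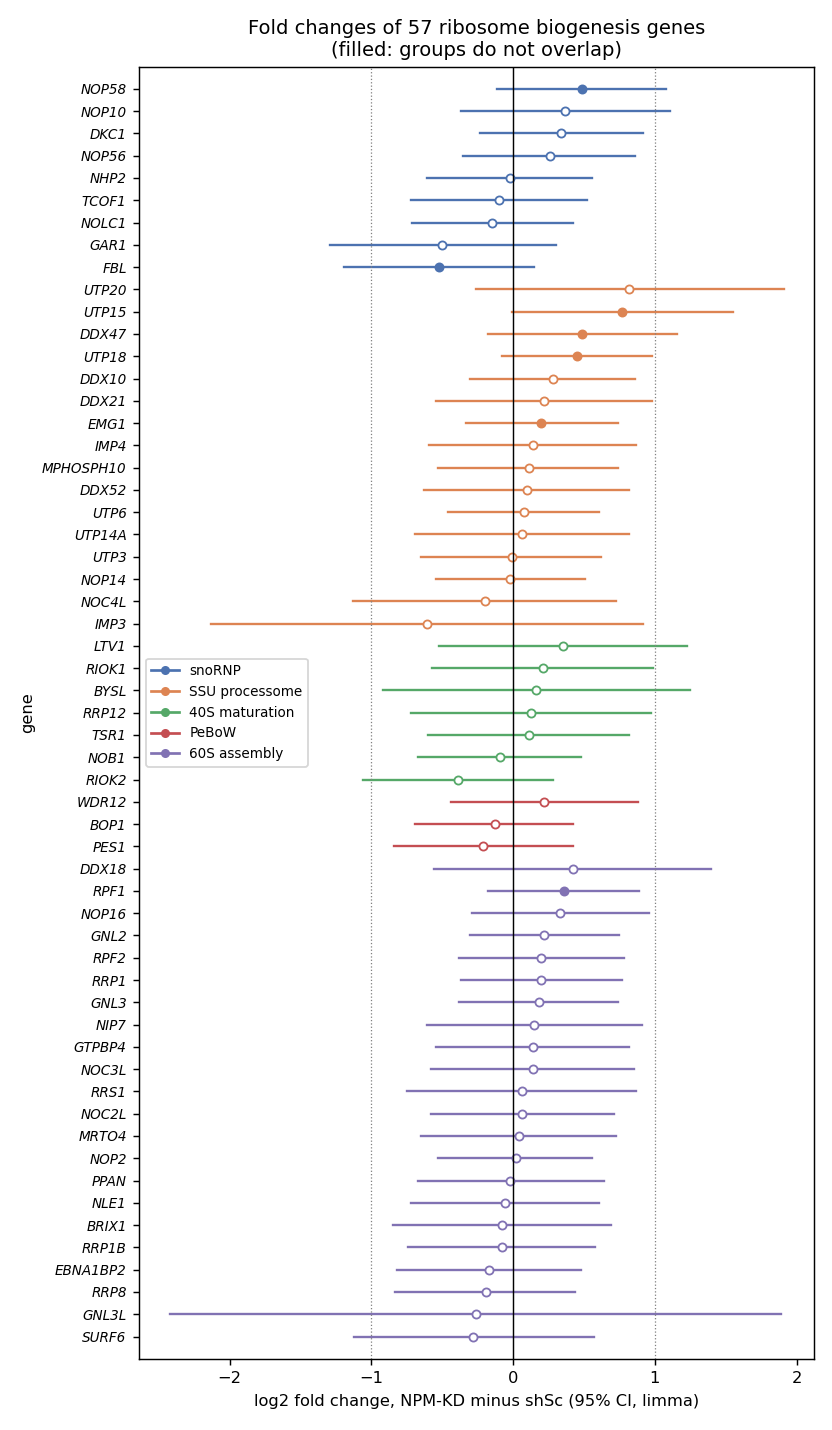
Log2 fold change (NPM-KD minus shSc, x axis) of the 57 ribosome biogenesis factors tested, by gene (y axis) and coloured by role, with 95% confidence intervals from limma over 5 libraries; filled points are genes whose groups do not overlap, and dotted lines mark -1 and 1. Every interval spans 0, the points run from -0.61 to 0.82, and 7 points are filled.

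The groups did not overlap for 7 members. In 6 of 57 (10.5%) every NPM-KD library was above shSc replicates 1 and 2, beside 12.3% of all tested genes, and in 1 (1.75%) every NPM-KD library was below, beside 10.4%. The share of members above was thus close to the background. Leaving out a library raised these counts for the members and for all tested genes. Above shSc were 20 members (35.1%, beside 31.5% of all tested genes) without shSc replicate 1, 14 (25%, beside 27%) without shSc replicate 2, 21 (37.5%, beside 21.9%) without NPM-KD replicate 3 and 7 (12.3%, beside 16.0% and 15.7%) without NPM-KD replicate 1 or 2. Below shSc were 5 (8.77%, beside 24.7%), 11 (19.6%, beside 30%) and 2 (3.57%, beside 23.1%) in the same order, 6 (10.5%, beside 14.3%) without NPM-KD replicate 1 and 2 (3.51%, beside 12.3%) without NPM-KD replicate 2. With shSc replicate 3 included, 0 members were called (0.0256% of all genes tested then), 5 were above (8.77%, beside 9.41%) and 0 below (4.54% of all tested genes).

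Promoter sequence was available for 47 of the 58 members from RefSeq (GRCh38.p14), from 250 bases before to 50 bases after the transcription start. The motif CACGTG, the E-box that MYC and related factors bind, was searched on both strands and was present in 18 of 47 (38.3%), beside 7.43% of all 27305 promoters and 10.4% of those of tested genes. CCGGAAG, a form of the ETS site, was present on either strand in 21 (44.7%), beside 10.7% and 20.5%. GCATGCG, the middle of an NRF1-type site, was found in 4 (8.51%, beside 4.13% and 6.87%) and TATAAA in 3 (6.38%, beside 9.63% of the promoters of protein-coding genes and 5.31% of those of tested genes). Both the E-box and CCGGAAG were present in 7 promoters and neither in 15. Matches that share bases were not separated, and the motifs were chosen with the values known. Of the 21 E-boxes in the members, 15 (71.4%) lay within 50 bases of the start, beside 36.6% of the E-boxes in all promoters. A match is a description of letters and not a bound site. To show this placement, 30 bases around the E-box nearest the start are given 5′ to 3′ on the gene's strand for members described below, with CACGTG in capitals and its first base counted from the start. It is at base 7 in FBL (chr19:39846356-39846385), -11 in NOP10 (chr15:34343130-34343159), -5 in RRP9 (chr3:51941892-51941921), 5 in UTP18 (chr17:51260538-51260567), -10 in UTP20 (chr12:101280083-101280112), 29 in BYSL (chr6:41921515-41921544) and 14 in PES1 (chr22:30591880-30591909).
FBL: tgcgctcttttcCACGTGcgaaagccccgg
NOP10: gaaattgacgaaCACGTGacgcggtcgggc
RRP9: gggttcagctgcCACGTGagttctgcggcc
UTP18: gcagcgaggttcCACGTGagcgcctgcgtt
UTP20: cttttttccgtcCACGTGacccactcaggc
BYSL: ttcttcagtcccCACGTGcgatccttcccg
PES1: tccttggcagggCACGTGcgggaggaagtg

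In 5 members (8.77%, beside 9.41% of all genes tested over 6 libraries) all 3 NPM-KD libraries lay above all 3 shSc libraries. These were UTP18, NOP58, EMG1, DDX47 and RPF1. The promoter windows of EMG1, DDX47 and RPF1 hold no E-box, though each has a match to CCGGAAG on either strand. No sequence was available for NOP58. UTP18 has E-boxes on both sides of its start. The 250 bases before its start (chr17:51260296-51260545 of GRCh38.p14, plus strand) hold 1 further E-box and 1 match to CCGGAAG on each strand (CTTCCGG is its reverse complement), in capitals.
UTP18: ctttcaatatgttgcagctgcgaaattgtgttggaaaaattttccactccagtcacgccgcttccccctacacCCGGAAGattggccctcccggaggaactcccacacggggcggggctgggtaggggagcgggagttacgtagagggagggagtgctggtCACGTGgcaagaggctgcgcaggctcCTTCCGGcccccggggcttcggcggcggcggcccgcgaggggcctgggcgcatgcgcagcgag

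**Figure D2:**
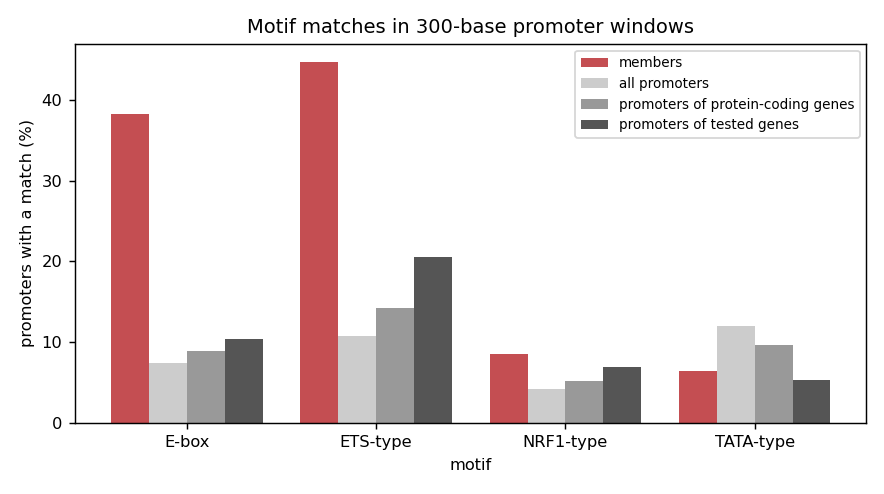
Share of 300-base promoter windows (y axis, percent) with a match to each motif (x axis: E-box CACGTG, ETS-type CCGGAAG, NRF1-type GCATGCG and TATA-type TATAAA) in 47 members, in all promoters, in those of protein-coding genes and in those of tested genes. The E-box and the ETS-type motif are found in 38.3% and 44.7% of the members' windows, above each of the 3 other sets.

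Among the snoRNP proteins, none of the 3 box C/D core members passed the test. FBL encodes fibrillarin, the methyltransferase of the particle (chromosome 19, 40325098 to 40337019 of GRCh37, minus strand). It measured 421.4 and 359.7 RPM in replicates 1 and 2 of shSc against 299.2, 195.8 and 340.4 RPM in NPM-KD, the single member lower in all 3 NPM-KD libraries. The means were 390.6 ± 43.7 RPM (SD, n = 2) and 278.5 ± 74.5 RPM (SD, n = 3), and the log2 fold change was -0.52 (SE 0.29, 95% confidence interval -1.19 to 0.15, limma adjusted p = 0.804). In shSc replicate 3 FBL was at 325.5 RPM, below NPM-KD replicate 3, so that the groups overlapped once that library was counted. NOP58 and NOP56 are the paired scaffold proteins that hold fibrillarin on the snoRNA. NOP58 (chromosome 2, 203130459 to 203168384, plus strand) was at 131.8 and 118.3 RPM in shSc against 208.1, 187.4 and 137.8 RPM in NPM-KD, above shSc in every library, also when shSc replicate 3 (128.7 RPM) was counted. With means of 125.1 ± 9.52 RPM (SD, n = 2) and 177.8 ± 36.2 RPM (SD, n = 3), its log2 fold change was 0.49 (SE 0.26, 95% confidence interval -0.11 to 1.08, limma adjusted p = 0.784). NOP56 was at 257.4 and 283.8 RPM in shSc against 368.2, 370.3 and 248.3 RPM in NPM-KD and 245.2 RPM in shSc replicate 3. Its groups overlapped through NPM-KD replicate 3 (log2 fold change 0.26, limma adjusted p = 0.902).

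The ratio of NOP58 to FBL within a library, chosen after the values were seen and not tested, was 0.313 and 0.329 in shSc and 0.695, 0.957 and 0.405 in NPM-KD. In shSc replicate 3 it was 0.395. For NOP56 to FBL the ratio was 0.611, 0.789 and, in shSc replicate 3, 0.753, against 1.23, 1.89 and 0.73 in NPM-KD. NPM-KD replicates 1 and 2 thus stood above all shSc libraries in both ratios, whereas NPM-KD replicate 3, with the least NPM1 mRNA, was close to shSc. The ratio of NOP58 to NOP56 was between 0.417 and 0.565 in all 6 libraries.

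In the box H/ACA particle, DKC1 encodes dyskerin, the pseudouridine synthase, and GAR1, NHP2 and NOP10 encode its partners. DKC1 was at 227.6 and 209.4 RPM in shSc against 293.8, 326.9 and 222.3 RPM in NPM-KD and 178.2 RPM in shSc replicate 3 (log2 fold change 0.34, SE 0.25, limma adjusted p = 0.848). GAR1, read at a lower level, was at 14.66 and 10.37 RPM in shSc against 10.77, 7.419 and 7.955 RPM in NPM-KD and 10.74 RPM in shSc replicate 3 (log2 fold change -0.50, SE 0.34, limma adjusted p = 0.843). Both genes overlapped between groups through 1 library, NPM-KD replicate 3 for DKC1 and NPM-KD replicate 1 for GAR1. The remaining partners overlapped between the groups. NHP2 had a log2 fold change of -0.02 (95% confidence interval -0.61 to 0.56) and NOP10 of 0.37 (-0.37 to 1.11). NOP10 was highest in the libraries numbered 1, at 274.5 RPM (shSc) and 358.2 RPM (NPM-KD), against 163.1, 215.7 and 266.3 RPM in the other 3 of the main comparison and 208.2 RPM in shSc replicate 3. NOLC1 and TCOF1 encode Nopp140 and treacle, related proteins that link snoRNPs with rRNA transcription. Their log2 fold changes were -0.15 (95% confidence interval -0.71 to 0.42) and -0.10 (-0.72 to 0.52). The ratio of DKC1 to GAR1, also chosen after the values were seen, was 15.5 and 20.2 in shSc, 16.6 in shSc replicate 3, and 27.3, 44.1 and 27.9 in NPM-KD, above shSc in all 3 libraries. For the 9 snoRNP genes the median log2 fold change was -0.02, with 4 above 0.

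**Figure D3:**
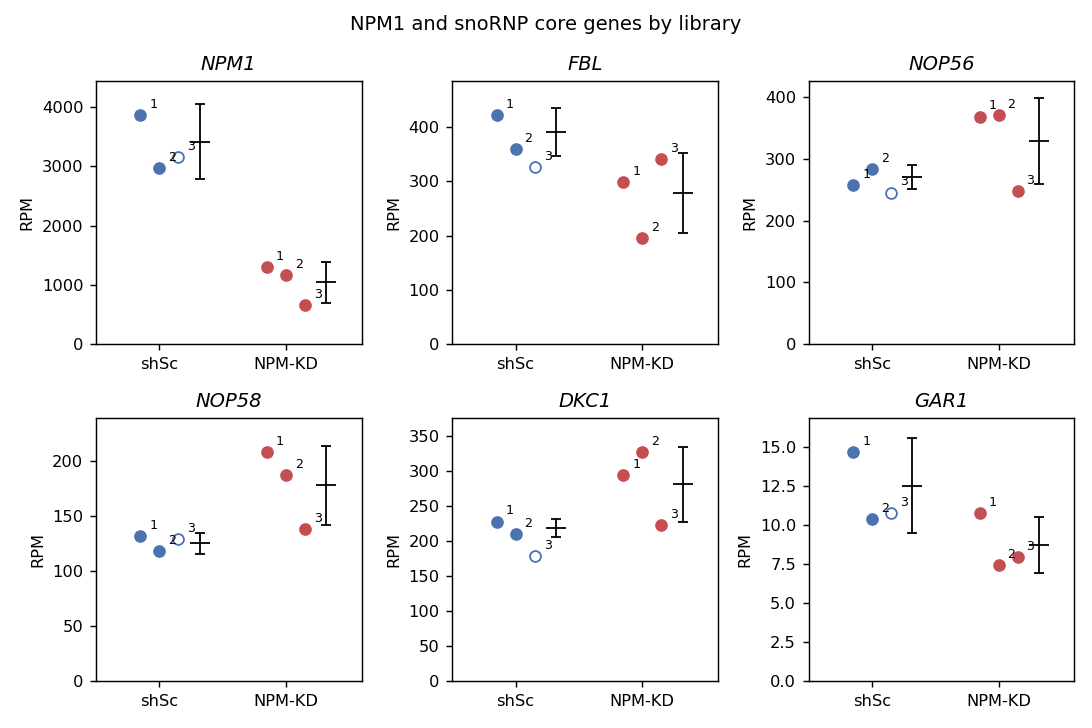
RPM (y axis, from 0) of NPM1, the box C/D genes FBL, NOP56 and NOP58 and the H/ACA genes DKC1 and GAR1 in each library, numbered by replicate; the bars are the mean and SD of shSc replicates 1 and 2 and of the 3 NPM-KD libraries, and the open circle is shSc replicate 3, left out of the mean. NPM1 separates the groups, FBL is lower in NPM-KD than in shSc replicates 1 and 2, and NPM-KD replicate 3 lies near shSc for NOP56, NOP58 and DKC1.

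In the SSU processome, 4 of the 16 genes tested (25%, beside 12.3% of all tested genes) were above shSc replicates 1 and 2 in every NPM-KD library, namely UTP15, UTP18, DDX47 and EMG1. With shSc replicate 3 counted, UTP15 no longer was. UTP15 is part of the subcomplex that first binds the nascent precursor rRNA (chromosome 5, 72861268 to 72879205, plus strand). It was at 36.87 and 45.30 RPM in shSc against 77.42, 94.40 and 46.73 RPM in NPM-KD, with NPM-KD replicate 3 just above the controls. Between means of 41.08 ± 5.96 RPM (SD, n = 2) and 72.85 ± 24.2 RPM (SD, n = 3) it differed on the log2 scale by 0.77 (SE 0.34, 95% confidence interval -0.01 to 1.55, limma adjusted p = 0.712, or 0.0535 before adjustment). UTP15 reached 116.8 RPM in shSc replicate 3, above every other library, and with all 6 libraries the log2 fold change was 0.27. UTP18, of the next subcomplex to join (chromosome 17, 49337907 to 49375297, plus strand), varied less. Its level was 67.81 and 62.52 RPM in shSc, 66.84 RPM in shSc replicate 3, and 89.11, 81.86 and 97.30 RPM in NPM-KD. All 3 shSc libraries were below all 3 NPM-KD libraries. Means were 65.17 ± 3.74 RPM (SD, n = 2) and 89.43 ± 7.72 RPM (SD, n = 3). On the log2 scale the difference was 0.45 (SE 0.23, limma adjusted p = 0.769), and with all 6 libraries it was 0.44 (unadjusted p = 0.0459, limma adjusted p = 0.723), the only member there with an unadjusted p under 0.05 (higher in NPM-KD), beside 4.27% of all genes tested over 6 libraries.

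DDX47, an RNA helicase of early rRNA processing, was at 23.54 and 18.10 RPM in shSc, 20.36 RPM in shSc replicate 3, and 33.41, 30.19 and 24.71 RPM in NPM-KD (log2 fold change 0.49, SE 0.29, limma adjusted p = 0.804). EMG1, a methyltransferase that modifies a single uridine-derived base of 18S rRNA, was at 70.49, 61.33 and, in shSc replicate 3, 47.05 RPM, against 82.80, 72.74 and 72.39 RPM in NPM-KD (log2 fold change 0.20, SE 0.23). Both genes lay above shSc in all NPM-KD libraries, for EMG1 by little, since its lowest NPM-KD value was next to the highest shSc value. UTP20, a large scaffold protein of the late processome, had the largest fold change of the members and a wide spread. It was at 8.67 and 21.37 RPM in shSc, 26.92 RPM in shSc replicate 3, and 22.72, 37.18 and 17.44 RPM in NPM-KD (log2 fold change 0.82, SE 0.47, limma adjusted p = 0.804). The value rested on shSc replicate 1, since the other shSc libraries lay within the NPM-KD range, and without it the log2 fold change was 0.19.

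Across the 16 processome genes tested, 12 had a log2 fold change above 0 and the median was 0.12. RRP9, which encodes a protein specific to the U3 snoRNP at the heart of the processome, was the one member not tested (chromosome 3, 51967445 to 51975920, minus strand). It had 1 read in shSc replicate 1 and 1 in NPM-KD replicate 1 (0.07 and 0.084 RPM) and 0 in the other 4, below the floor of 3 reads in each library. IMP3, a U3-associated partner, was also near the limit, at 0.352 and 3.031 RPM in shSc, 3.393 RPM in shSc replicate 3, and 0.252, 0.767 and 1.054 RPM in NPM-KD. Its fold change of -0.61 on the log2 scale had an interval of -2.13 to 0.92 and cannot be read as a direction. Whether the amplicons of RRP9 and IMP3 capture these transcripts well was not tested.

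In the 40S maturation group, which holds late factors such as the kinases RIOK1 and RIOK2 and the nuclease NOB1, the 7 log2 fold changes ran from -0.39 to 0.35 with a median of 0.13. The libraries of 1 group differed by more than this. BYSL, the bystin adaptor of the late 40S precursor, was at 83.60 and 29.43 RPM in the shSc pair and at 78.00, 40.76 and 54.37 RPM in NPM-KD, with 36.98 RPM in shSc replicate 3, so both libraries numbered 1 were high (gene chosen after its values were seen). RRP12, which acts in export of pre-40S particles, was at 75.28 and 60.53 RPM in shSc, 128.9 RPM in shSc replicate 3, and 107.0, 80.24 and 46.52 RPM in NPM-KD, with NPM-KD replicate 1 at the top of that group and replicate 3 at the bottom. Its log2 fold change was 0.13 (95% confidence interval -0.72 to 0.97).

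The PeBoW complex of PES1, BOP1 and WDR12 processes the precursor of the large-subunit rRNA. PES1 was at 130.3 and 156.2 RPM in shSc against 116.0, 160.5 and 100.1 RPM in NPM-KD. For BOP1 the levels were 100.3 and 110.7 against 114.4, 88.09 and 87.56 RPM, and for WDR12 they were 192.0 and 130.5 against 221.6, 194.7 and 146.0 RPM. In shSc replicate 3, PES1 was at 107.9, BOP1 at 145.1 and WDR12 at 122.8 RPM, and BOP1 was higher there than in any other library. The log2 fold changes were -0.21, -0.13 and 0.22 (-0.08, -0.29 and 0.34 over all 6 libraries), and all 3 genes overlapped between groups. All 3 were lowest, among the NPM-KD libraries, in replicate 3.

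Among the 22 genes of 60S assembly, 14 had a log2 fold change above 0, the median was 0.06, and the range from -0.28 to 0.42 was narrower than in the processome. RPF1, a factor of early 60S assembly, was the one gene here without overlap. It was at 89.52 and 108.1 RPM in shSc, 101.0 RPM in shSc replicate 3, and 130.9, 134.6 and 114.0 RPM in NPM-KD (log2 fold change 0.36, SE 0.23, limma adjusted p = 0.820). RRS1, which helps to bring 5S rRNA into the subunit, was at 55.12 and 60.61 RPM in shSc against 81.71, 69.93 and 38.30 RPM in NPM-KD. NPM-KD libraries thus lay on either side of the controls, and the log2 fold change was 0.06 (95% confidence interval -0.75 to 0.87). GNL3L, a nucleolar GTPase, was at 0.493 and 7.337 RPM in shSc, 6.107 RPM in shSc replicate 3, and 0.505, 2.302 and 3.951 RPM in NPM-KD, so that both libraries numbered 1 were low. Its log2 fold change of -0.26 had the widest interval of all members, -2.42 to 1.89.

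**Figure D4:**
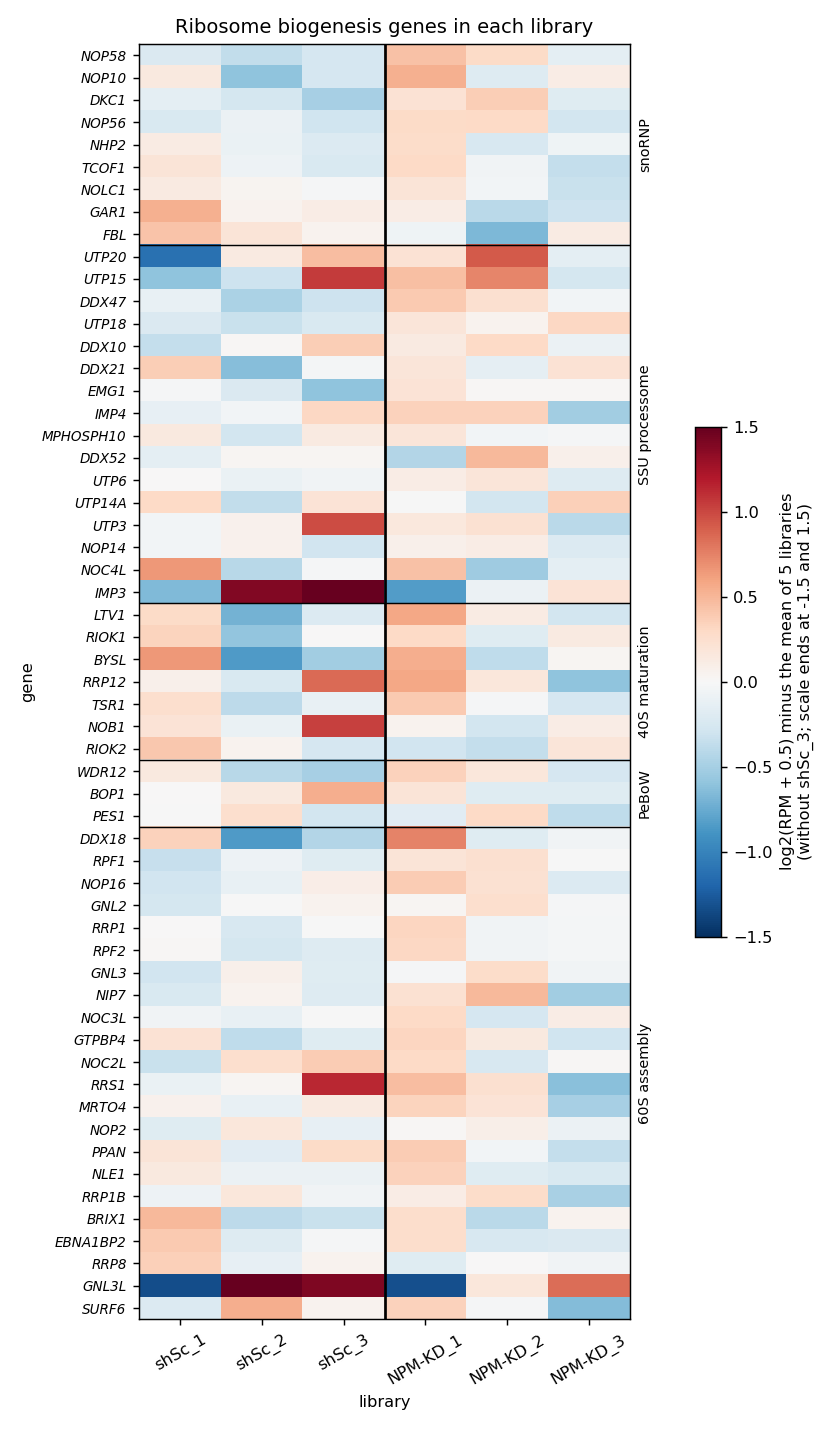
Level of the 57 tested members (rows, grouped by role and ordered by fold change) in each of the 6 libraries (columns), as log2(RPM + 0.5) minus the mean of the 5 libraries of the main comparison; red is above and blue below that mean, and the colour scale ends at -1.5 and 1.5. NPM-KD replicate 1 is mostly red and NPM-KD replicate 3 mostly blue, and the dark cells of shSc replicate 3 include UTP15, UTP3, NOB1 and RRS1.

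As a median, the members differed between libraries of the same group, but the role groups did not all follow the same order. On the log2 scale, the median deviation of the 57 members from their 5-library mean was 0.01 and -0.10 in shSc replicates 1 and 2 and 0.26, 0.02 and -0.14 in NPM-KD replicates 1, 2 and 3. Over all tested genes these medians were 0.03, -0.03, 0.02, -0.05 and 0.08. In shSc replicate 3 the members were at -0.02 and all tested genes at -0.21. NPM-KD replicate 1 was therefore high for these genes (48 of 57 above their mean) and NPM-KD replicate 3 low (16 of 57 above), and the difference between those 2 libraries was larger than the median difference between the groups. NPM-KD replicate 1 had the highest NPM-KD value for 31 of 57 members (54.4%), beside 31.8% of all tested genes and 35.7% of those at the members' level. In the processome it was highest for 4 of 16 (25%), and NPM-KD replicate 2 for 8 (50%). NPM-KD replicate 3 had the lowest for 33 of 57 (57.9%), beside 31.5% and 36.1%. The 40S maturation genes had medians of 0.4, -0.18 and 0.03 in NPM-KD replicates 1, 2 and 3. The library with the lowest NPM1 level (654.7 RPM) also had the lowest median over all members, but not in every role group. Replicate 2 of shSc was below NPM-KD replicate 3 in the processome (-0.16 and -0.07), 40S maturation (-0.39 and 0.03) and 60S assembly (-0.1 and -0.07). It was above for the snoRNP genes (-0.09 and -0.18) and PeBoW (0.15 and -0.25). A link with the NPM1 level was not tested. The median log2 fold change of the members moved with these libraries, to 0.010 without NPM-KD replicate 1, 0.012 without shSc replicate 2 and 0.188 without NPM-KD replicate 3.

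MYC, a transcription factor known to drive many ribosome biogenesis genes, was at 701.4 and 431.4 RPM in shSc against 556.9, 372.2 and 484.6 RPM in NPM-KD (log2 fold change -0.24, 95% confidence interval -0.94 to 0.45). It was highest in the library numbered 1 of each group and at 448.3 RPM in shSc replicate 3. GAPDH, a glycolytic enzyme, was at 3371 and 5108 RPM in shSc against 3962, 3560 and 4720 RPM in NPM-KD, with 3634 RPM in shSc replicate 3. The part of MYC in the differences between libraries was not tested.

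**Figure D5:**
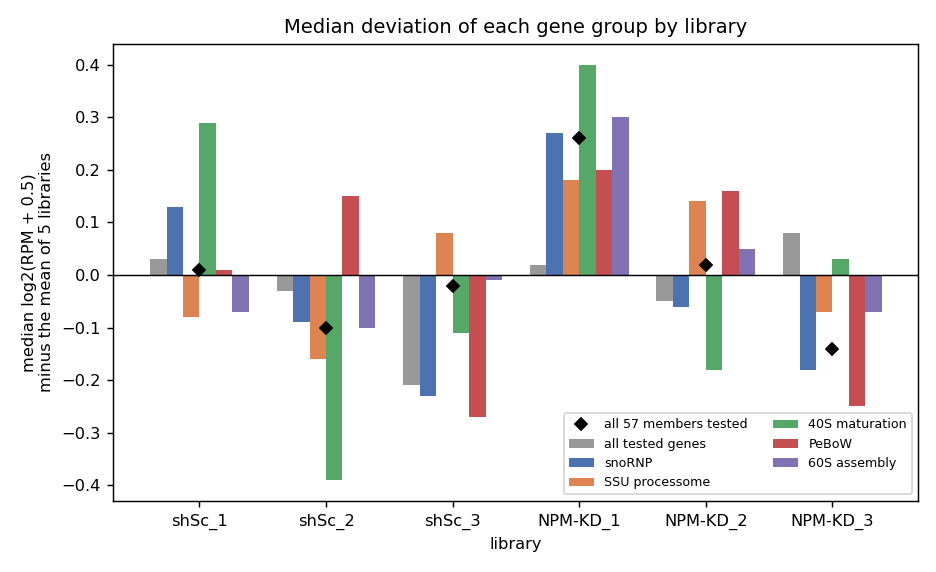
Median deviation in log2(RPM + 0.5) from the 5-library mean (y axis) of each role group (coloured bars), of all tested genes (grey bars) and of the 57 tested members (diamonds) in each library (x axis). NPM-KD replicate 1 is above 0 in all 5 role groups, with a member median of 0.26, and NPM-KD replicate 3 has the lowest member median, -0.14.

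Other genes of the same pathway gave a like picture. Of 91 further ribosome biogenesis genes (processome, 60S and other nucleolar factors), 89 were tested, 0 were called in either direction, and 2 had an unadjusted p under 0.05 in the higher and 3 in the lower direction, beside 3.81% and 3.33% of all tested genes. Their median log2 fold change was 0.10 with 57 of 89 above 0. By library, their median deviation was 0.20, 0.09 and -0.12 in NPM-KD replicates 1, 2 and 3. NOL6, a processome protein named after its values were seen, was at 25.16 and 27.75 RPM in shSc and 72.83 RPM in shSc replicate 3. In NPM-KD it was at 62.77, 44.94 and 28.92 RPM, the order of that pooled median. The 32 further small-subunit genes tested, NOL6 among them, had medians of 0.14, 0.21 and -0.11, highest in NPM-KD replicate 2.

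Replicate 3 of shSc was above all other 5 libraries for 9 of 57 members (15.8%), beside 15.4% of all tested genes and 9.74% of those at the members' level. It was below all 5 for 8.77% of the members, beside 26.8% and 32%. The members with 1 exon in their canonical transcript are IMP3, UTP3 and RRS1. UTP3, a processome protein, was at 147.0 RPM in shSc replicate 3, against 72.32 and 77.92 RPM in the other shSc libraries and 83.47, 87.83 and 56.11 RPM in NPM-KD, and RRS1 was at 130.8 RPM. In that library 277 of 306 tested genes with 1 exon (90.5%) were above the other 5, against 1185 of 9901 genes with more exons. Whether genomic DNA or unspliced RNA was more abundant there was not tested. For UTP3 and RRS1 the log2 fold change was -0.01 and 0.06 without that library and -0.33 for both with it.

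The members also shared features that did not enter their choice. In GENCODE release 44 on GRCh37, 6 of 58 (10.3%) host a snoRNA on the same strand, beside 3.54% of the 10339 tested genes that could be matched. These hosts are NOP56, NOP58, DKC1, TSR1, GNL3 and PPAN, and their log2 fold changes ran from -0.02 to 0.49 with 5 above 0. The mean level of the tested members was between 1.09 and 386 RPM, with a median of 94.7 RPM, and for 55 of them the mean was 10 RPM or more. The median member had 1328 reads in a library, and among those 55 the median counting error was 2.71%. Over the 57 tested members the median SD of levels in NPM-KD was 0.31, in log2 units rather than percent. Counting error was therefore small beside the spread between libraries. Pseudogenes named after the gene exist for 16 members, so that their reads could include those of a near copy. The genomic span of 23 members overlaps that of another coding gene on either strand, as PPAN does with a readthrough transcript. Whether such overlaps add to their reads was not tested.

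The 17 tested members with an E-box had a median log2 fold change of 0.06 (from -0.52 to 0.82), and the 29 without one had 0.14 (from -0.61 to 0.77).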

How the data were processed

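RNA of 6 K562 libraries was measured with the Ion AmpliSeq Transcriptome kit on an Ion Proton. The authors used Torrent Suite for alignment to hg19. RPM per gene, as the authors deposited it, came from the AmpliSeqRNA plugin (its filters: not given in the sources used here). The 10 spike-in rows, all at 0, were removed. Dividing each RPM value by the worth of 1 read returned a whole number, to within 0.1 read, for 100% of values. Intervals from these reads cover counting error only.

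For genes reaching 1 RPM in 2 or more libraries, log2(RPM + 0.5) was compared with limma 3.58.1 (R 4.3.3), using its variance trend and no covariate. P-values were adjusted by Benjamini-Hochberg over all tested genes, at 0.05. The pseudocount shrinks the fold changes of low genes. Libraries were those the study retained. The shSc pair was identified from the control means in the study's gene list, which replicates 1 and 2 matched for 100% of 693 genes and the other pairs for 0.29% or fewer. The procedure was run on simulated reads drawn independently for each gene, without the shared shifts between libraries described above. That run cannot show how the procedure handles such shifts. Alternatives were all 6 libraries, pseudocounts of 0.1 and 1, no filter or 5 RPM, quantile normalization, TMM factors, a limma fit that omits the trend, edgeR 4.0.16 and DESeq2 1.42.0 on recovered reads, a replicate block and each library left out. Python 3.11.15 with pandas 2.3.3 wrote the tables.

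The members and lists were chosen with earlier results of these data known. Named genes are members without overlap between groups, the 5 smallest p-values, snoRNP and PeBoW proteins, single-exon and untested members and the 4 widest NPM-KD ranges. Coordinates are from GENCODE release 44 on GRCh37, and promoters from RefSeq. Some marker genes examined are not reported here.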

Additional observations from a re-analysis of the deposited data

Results flagged for a closer look

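In 3 members, shSc replicate 3, which is outside the main comparison, was more than 1.5 times as high as every other library. UTP3 was at 147.0 RPM, NOB1 at 192.6 RPM and RRS1 at 130.8 RPM there. NOB1, the nuclease that finishes 18S rRNA, was at 108.8 and 88.05 RPM in shSc replicates 1 and 2 and at 97.28, 77.60 and 101.8 RPM in NPM-KD, and it has 9 exons, whereas UTP3 and RRS1 have 1. No test of that library against the others was run.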

How the results depend on the processing

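With the replicate number as a block in 5 libraries, 3 members (5.26%, beside 6.08% of all tested genes) were called higher in NPM-KD (NOP58, UTP15 and UTP20). Called lower was 1 member (1.75%, beside 8.61%), FBL (limma adjusted p = 0.0207). At an unadjusted p under 0.05, 11 members were higher (19.3%, beside 12.5%) and 2 lower (3.51%, beside 16.1%). Of the 89 other ribosome biogenesis genes tested, 17 were called higher and 7 lower, beside the same 6.08% and 8.61% of all tested genes. NPM1 was at -1.46 and was called too (limma adjusted p = 4.65e-06). This fit called 1698 genes in all (14.7%), and NPM-KD replicate 3 then has no shSc partner and adds nothing to the difference. The block leaves little within a gene to estimate its spread, so these p-values lean on the variance that limma shares over genes. With the block in all 6 libraries 0 genes were called. At an unadjusted p under 0.05, 2 members were higher (3.51%, beside 5.04% of all genes tested then) and 0 lower (beside 4.27%). In deviations from group means over 6 libraries, same-numbered libraries correlated at 0.430, 0.308 and 0.0406, and differently numbered ones at -0.367 to 0.0978. Over the 5 libraries, same-numbered pairs were at 0.531 and 0.463, and the others at -0.531 to 0.132. For numbers 1 and 2, same-numbered libraries were the more alike in these deviations. Over the 5 libraries the deviations of the shSc pair mirror each other, so each value recurs with its sign turned. Without taking off group means, shSc replicate 1 correlated most, among NPM-KD libraries, with replicate 1 (0.9547). By contrast, shSc replicate 2 correlated more with NPM-KD replicate 3 (0.9574) than with NPM-KD replicate 2 (0.953). The labels do not say whether the numbers pair the libraries, and the main comparison was left unpaired. With all 6 libraries and with DESeq2, 1 member (1.75%) was at an unadjusted p under 0.05, higher in NPM-KD, beside 4.27% and 3.83% of all tested genes. The count of members lower without overlap was 0 with all 6 libraries, beside 4.54% of all genes tested then. NPM1 was called with DESeq2 (-1.71), as it was with the block in 5 libraries.

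Leaving out NPM-KD replicate 1, 2 or 3 gave 0 members called. At an unadjusted p under 0.05, 0, 0 and 2 (3.57%) members were then higher, beside 2.17%, 1.97% and 5.81% of all tested genes. The count of lower members was 0 in each, beside 2.01%, 1.64% and 6.9%. Leaving out any 1 of the 5 libraries gave 7 to 21 members higher and 2 to 11 lower without overlap (shares given above). The median log2 fold change was then 0.010 to 0.188, and that of NPM1 was -1.95 to -1.46. A lone shSc library was taken to vary as the NPM-KD libraries do. Over all genes, 15 were called in the main comparison, 3 with all 6 libraries, 11 with edgeR and 190 with DESeq2. The other counts ran from 7 to 26 with other scaling, pseudocounts or a 5 RPM filter, except 2 without a filter, and from 0 to 5 with a library left out. Fold changes of UTP3 and RRS1 turned sign in 5 of 17 alternatives, NHP2 and RRP12 in 4, TCOF1 in 3, GNL3L in 2 of 16 and WDR12 in 1. The cause was not tested.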
